A study of Mus musculus with 8 samples.

Results

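The Dlk1-Dio3 imprinted cluster on mouse chromosome 12 was represented by 5 transcripts: the non-coding RNAs Meg3, Rian and Mirg and the protein-coding genes Dlk1 and Dio3. Members were all probe sets annotated to 1 of these symbols alone. The array annotation gave 16 such probe sets of 28898, for 4 of 17097 genes: 10 for Meg3, 4 for Rian, 1 for Mirg and 1 for Dlk1. Dio3 was not analysed here, since no probe set carried its symbol alone. The members were chosen by their old minus young differences, seen in earlier results of these arrays, so those differences are given as a description, with no p. Counts of members past the threshold of the fit across all genes stand only beside the share of all genes that passed.

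Dermal fibroblasts were profiled from 4 old mice (18 months) and 4 young mice (2 months), with 1 Affymetrix array per animal. Per the labels' protocols, collagenase-digested skin without subdermis was sorted for cells that lacked CD45, CD117, CD24, CD31 and EpCam and carried Pdgfra and CD34. The series text gives 1 young and 1 old mouse per day of collection. Strain, sex and treatment of the animals are not given in the sources used here.

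In this cluster the allele from the father expresses the protein-coding genes Dlk1, Rtl1 and Dio3, and the allele from the mother expresses the non-coding RNAs. Meg3 (also called Gtl2), Rian and Mirg lie on the same strand, and many small nucleolar RNAs and microRNAs are cut from this transcribed stretch. A methylated region between Dlk1 and Meg3 marks the father's allele, and the cluster is known for its activity in the embryo and in stem cells. The arrays do not tell the 2 alleles apart.

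RefSeq (GRCm38.p6) lists 103 genes from Dlk1 through Dio3, of which 61 are microRNA genes and 19 are small nucleolar RNA genes. Of the microRNA genes, 2 lie inside the span of Meg3, 3 inside Rian, 10 inside Mirg and 30 between Rian and Mirg. A further 15 lie between Meg3 and Rian, and 1 lies elsewhere in the stretch. All 11 small nucleolar RNA genes inside a member lie in Rian. All 5 members matched the RefSeq promoter table. The promoter window of Meg3 (chr12:109540746-109541045, plus strand, GRCm38.p6) is shown because Meg3 is the first of the 3 non-coding members along that strand. Capitals mark a cAMP response element (TGACGTCA), a CCAAT box (CCAAT) and a TATA box (TATAAA, which overlaps its own match on the other strand).
Meg3 promoter: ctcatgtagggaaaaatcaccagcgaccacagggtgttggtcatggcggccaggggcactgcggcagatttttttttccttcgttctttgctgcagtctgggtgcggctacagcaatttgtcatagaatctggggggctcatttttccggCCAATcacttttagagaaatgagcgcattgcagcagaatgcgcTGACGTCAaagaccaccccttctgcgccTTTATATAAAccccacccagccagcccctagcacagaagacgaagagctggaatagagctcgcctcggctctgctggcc

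With both strands searched, the cAMP response element was present in 1.79% of 32851 RefSeq promoter windows of the same length, the TATA box in 13.62% and the CCAAT box in 37.41%. It began 57 bases before the start of Meg3 and was not found in the windows of Rian, Mirg, Dlk1 or Dio3. A second listed start of Meg3 held none of the 3 motifs. The window of Mirg held a CCAAT box, and that of Dio3 held a TATA box and a CCAAT box. These are matches of letters, and no binding was measured.

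Mirg is shown through its microRNAs because, with the brightest probe set for each gene, it had the widest age difference among the 4 measured members. RefSeq places 19 mature microRNAs inside Mirg, with 18 different seeds (bases 2 to 8, in capitals). The pair that shares a seed inside Mirg is miR-453 and miR-496a-5p. The others shown come from further hairpins along Mirg, the last of them miR-410-3p (chr12:109743764-109743784, plus strand, GRCm38.p6).
mmu-miR-453: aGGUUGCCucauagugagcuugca
mmu-miR-496a-5p: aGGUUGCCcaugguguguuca
mmu-miR-154-3p: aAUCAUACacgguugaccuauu
mmu-miR-377-3p: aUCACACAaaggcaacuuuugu
mmu-miR-541-5p: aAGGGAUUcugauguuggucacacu
mmu-miR-409-3p: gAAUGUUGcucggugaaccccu
mmu-miR-369-3p: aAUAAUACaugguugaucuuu
mmu-miR-410-3p: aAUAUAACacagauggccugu

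Over the whole stretch from Dlk1 through Dio3, 113 mature microRNAs carry 104 seeds, and 9 seeds are each shared by a pair. The arrays measured the host RNA Mirg, and mature microRNAs were not measured.

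Meg3, Rian and Mirg were all lower in old than in young dermal fibroblasts, whereas Dlk1 lay near the level of olfactory receptor genes in both ages. Values are normalized log2 levels, and a difference of 1 is a 2-fold change. For a gene with several probe sets, the brightest over all 8 arrays stands for it and the others serve as a check. In the fit across all 17097 genes, all 4 measured members passed the threshold as lower in old, and 7.66% of all genes did so. Over all genes 9.87% passed as higher in old and 17.5% in either direction. Old arrays lay entirely below young arrays for all 4, and for 9.66% of all genes. Since the members were chosen on this contrast, nothing is read from these counts. In bulk samples, fewer cells of a type and less RNA per cell cannot be told apart.

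Meg3, a non-coding RNA expressed from the allele of the mother, had levels of 9.72, 9.55, 9.40 and 9.61 in old fibroblasts (replicates 1 to 4). In young fibroblasts it had 11.20, 11.07, 11.27 and 11.32. The groups did not overlap, and the highest old array lay 1.35 below the lowest young array. The means were 9.57 ± 0.13 in old and 11.22 ± 0.11 in young (SD, n = 4 each). The log2 difference was -1.65 ± 0.08 (SE), or 3.13-fold lower in old.

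The other Meg3 probe sets gave the same direction. Across all 10, the difference ranged from -2.41 to -1.11 with a median of -1.68, and the old and young arrays did not overlap in any of them. All 16 probe sets of the members passed the threshold as lower in old, as did 7.16% of all 28898 probe sets, and 9.15% had old arrays entirely below young arrays. The widest difference came from the ninth probe set by level, which had 5.46, 5.40, 5.11 and 5.80 in old and 7.67, 7.53, 8.24 and 7.96 in young arrays. The narrowest came from the sixth, with 6.84, 6.95, 6.83 and 6.97 in old and 8.09, 7.87, 7.97 and 8.09 in young arrays. Where each probe set lies along Meg3 was not analysed here.

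Rian, the host of box C/D small nucleolar RNAs of the cluster, had levels of 9.03, 8.80, 8.42 and 9.07 in old fibroblasts. In young fibroblasts it had 10.24, 10.10, 10.65 and 10.65. Old replicate 3 was the lowest array, and the groups were 1.03 apart at their nearest. The means were 8.83 ± 0.30 in old and 10.41 ± 0.28 in young (SD, n = 4 each), with a difference of -1.58 ± 0.17 (SE), or 2.99-fold lower in old.

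The 4 Rian probe sets fell into 2 sizes of difference. The probe sets of highest and lowest mean differed by -1.58 and -1.61. The probe set second by level had 8.04, 7.90, 7.87 and 8.58 in old and 10.59, 10.81, 11.04 and 10.90 in young arrays, a difference of -2.74 ± 0.16 (SE) or 6.67-fold. The one next to it by level had 7.90, 7.91, 7.67 and 8.77 in old and 10.29, 10.47, 10.94 and 10.77 in young arrays, a difference of -2.56 ± 0.23 (SE). Old and young did not overlap in any of the 4. Taking the mean over the 4 gave -2.12 for Rian, and the most variable probe set gave -2.74.

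Mirg, the host RNA of the microRNAs printed above, had the widest difference of the members where the brightest probe set stands for each gene, with 5 of 17097 genes further below 0. The second Rian probe set (-2.74) differed slightly more than Mirg (-2.71). Mirg had 4.73, 5.52, 5.08 and 6.68 in old fibroblasts and 7.79, 7.86, 8.56 and 8.63 in young fibroblasts. Old arrays were spread over almost 2 log2 units, with replicate 4 well above the other old arrays, and all of them lay below all young arrays. The level in old replicate 1 is near background, since it lay under the 95th percentile of olfactory receptor genes on old arrays (4.77). The means were 5.50 ± 0.85 in old and 8.21 ± 0.45 in young (SD, n = 4 each), a difference of -2.71 ± 0.38 (SE) or 6.53-fold lower in old. Without old replicate 4 the difference was -3.10 ± 0.25 (SE). Only 1 probe set named Mirg, so no second probe set checks it.

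**Figure D1:**
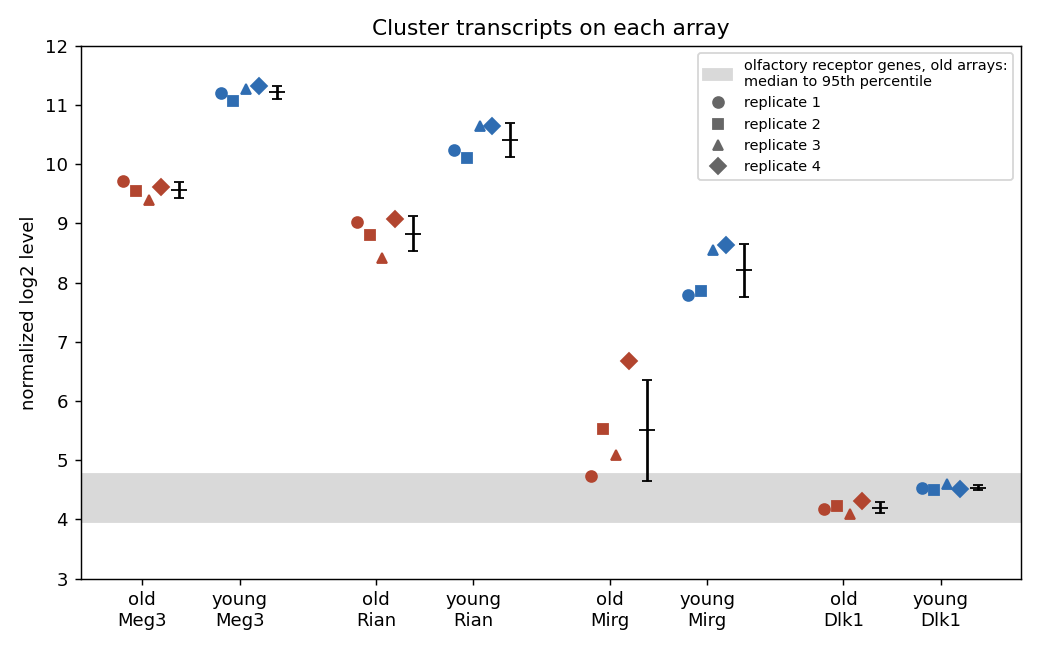
Normalized log2 level (vertical axis) of Meg3, Rian, Mirg and Dlk1 on each array, old left of young, with the mean and SD (n = 4) beside each group and 1 marker shape per replicate number. Old arrays lie below young arrays for each gene, with old Mirg spread from 4.73 to 6.68. Dlk1 lies inside the grey band, as does Mirg in old replicate 1. The band runs from the median to the 95th percentile of olfactory receptor genes on old arrays (3.95 to 4.77).

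Dlk1 (also called Pref-1), a transmembrane protein of the Delta family that holds back fat cell formation, had 4.18, 4.22, 4.09 and 4.31 in old fibroblasts. In young fibroblasts it had 4.53, 4.50, 4.60 and 4.51. The groups did not overlap, but their nearest arrays were 0.19 apart. The means were 4.20 ± 0.09 in old and 4.54 ± 0.05 in young (SD, n = 4 each), with a difference of -0.34 ± 0.06 (SE). The 41 measured olfactory receptor genes, which serve odour detection in the nose, had a median of 3.95 and a 95th percentile of 4.77 on old arrays, against 3.98 and 4.73 on young arrays. Both age groups of Dlk1 lay between these bounds, so its level is near background. There, a log2 difference is a poor guide to whether or how much the RNA changed. Probe sets differ in how strongly they bind, so this is no detection call.

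Control probe sets for non-specific signal that hold 17 or more G and C bases moved the same way as the members. Their mean was 5.38 to 5.98 on old arrays and 6.13 to 6.41 on young arrays, a difference of -0.57. With this mean as a covariate, a setting added after the data were seen, Meg3 differed by -1.88 ± 0.15 and Rian by -2.13 ± 0.27. In the same setting Mirg differed by -2.87 ± 0.78 and Dlk1 by -0.42 ± 0.13 (SE). With the covariate 0.965% of all genes passed the threshold, and Meg3 and Rian, but not Mirg and Dlk1, were among them. The covariate and age share most of their variation, since the groups do not overlap in it.

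**Figure D2:**
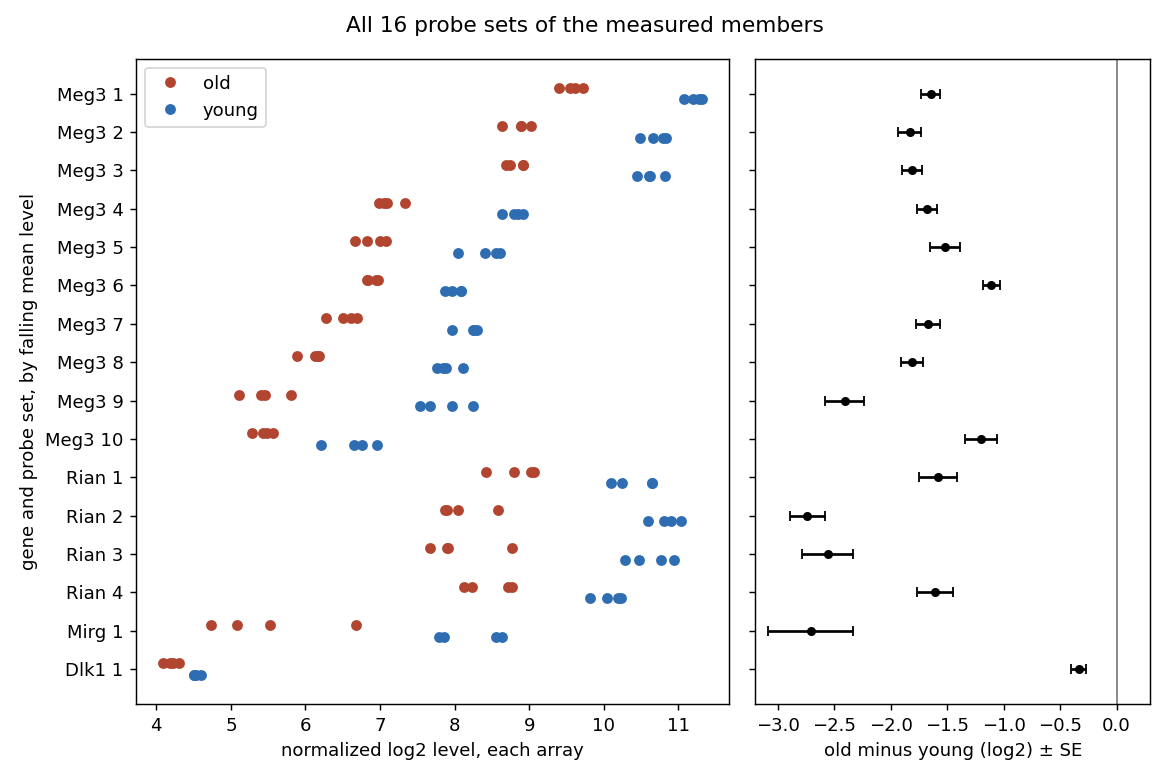
Left, normalized log2 level on each array for all 16 probe sets of the measured members, ordered by mean level within each gene, with old arrays drawn above young arrays. Right, the difference old minus young (log2) with its SE. All 16 differences are below 0, from -2.74 for a Rian probe set to -0.34 for Dlk1.

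Within an age, single arrays stood out in the same way for several members. Old replicate 4 was the highest old array for all 4 Rian probe sets, for Mirg, for Dlk1 and for 6 of 10 Meg3 probe sets. The brightest Meg3 probe set was highest in old replicate 1. Among the 8 arrays, old replicate 4 also had the highest median (5.34) and the highest mean of olfactory receptor genes (4.15). Whether this bears on the members was not tested. Old replicate 3 was the lowest old array for all 4 Rian probe sets, for Dlk1 and for 6 of 10 Meg3 probe sets, while Mirg was lowest in old replicate 1. Young replicate 2 was the lowest young array in 9 of 10 Meg3 probe sets and in 2 of 4 Rian probe sets. Mirg had its 2 lower young values in replicates 1 and 2, as did Rian.

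The rest of the cluster and its neighbours were then described in chromosome order. Between Dlk1 and Dio3, apart from the members, 2 genes were measured. Dio3os, a non-coding RNA antisense to Dio3, averaged 4.41 ± 0.09 in old and 4.46 ± 0.09 in young (SD, n = 4 each), a difference of -0.04 (adjusted p = 0.755). The non-coding 3110009F21Rik averaged 3.71 ± 0.08 in old and 3.68 ± 0.05 in young, a difference of 0.03 (adjusted p = 0.819). Both lay under the 95th percentile of olfactory receptor genes, as did Dlk1, and neither passed.

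Outside the cluster, the nearest 15 measured protein-coding genes on each side were taken. Of these 30 genes, 4 rose, 5 fell and 21 did not pass, with a median difference of -0.01 against 0.01 over all genes. Counts of this and the later lists stand beside the 17.5% of all genes that passed in either direction. The nearest measured genes on either side, Wdr25 and Ppp2r5c, differed by -0.01 and -0.02 and did not pass. Evl, an actin regulator of the Ena/VASP family, averaged 5.77 ± 0.14 in old and 6.52 ± 0.17 in young, a fall of 1.68-fold (adjusted p = 7.8e-04), with -1.27 from its most variable probe set. Slc25a47, a mitochondrial carrier, fell by 0.65 on the log2 scale (adjusted p = 0.00551), and the predicted gene Gm266 fell by 0.87 (adjusted p = 5.9e-04). Tnfaip2, a gene induced by tumour necrosis factor, rose by 0.77 (adjusted p = 6.3e-04). The other flanking genes that passed were Vrk1, Eif5 and Tecpr2, higher by 0.23 to 0.45, and Eml1 (-0.25) and Cinp (-0.28). The differences of the 30 flanking genes ranged from -0.87 to 0.77. Those of Meg3, Rian and Mirg lay below that range, and that of Dlk1 (-0.34) lay inside it. With its most variable probe set Gm266 differed by -1.295. Since the members were chosen on this contrast, nothing is read from their place against the flanking genes.

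**Figure D3:**
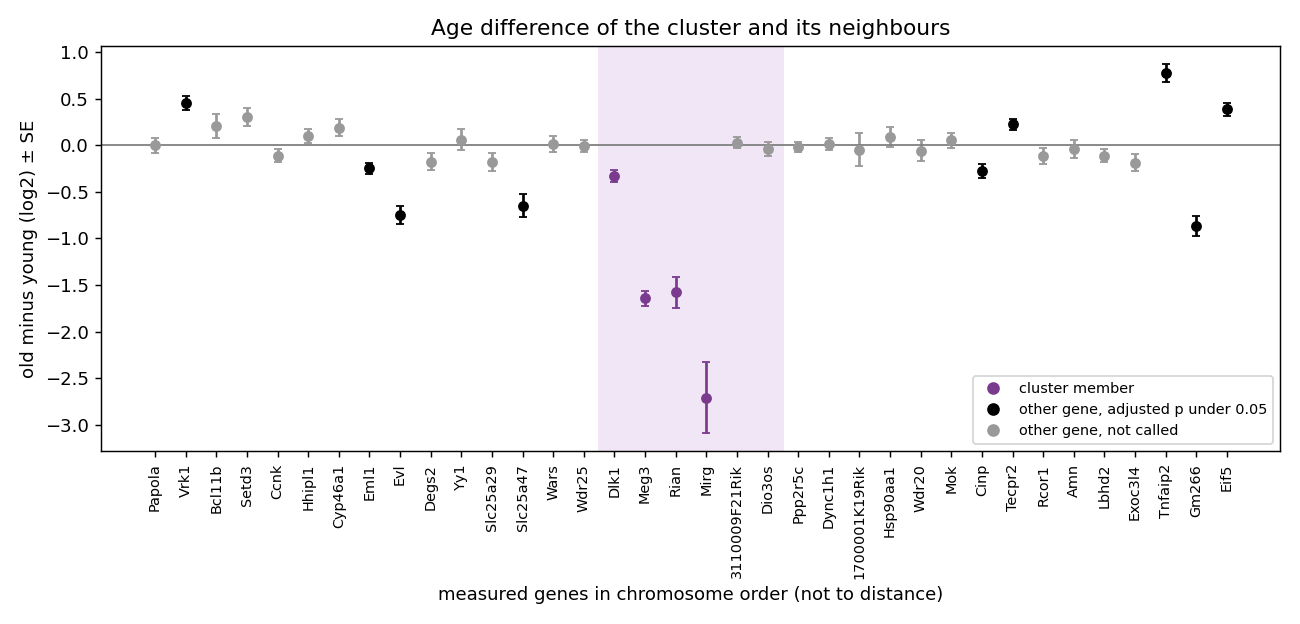
Difference old minus young (log2, with SE) for the measured genes around the cluster in chromosome order, with spacing not to scale and the stretch from Dlk1 to the gene next to Dio3 shaded. Meg3, Rian and Mirg, chosen on this contrast, lie between -2.71 and -1.58. The 30 flanking genes lie between -0.87 and 0.77, and Dlk1 (-0.34) lies inside that range.

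Other imprinted genes moved in both directions. In a list of 25 genes of the imprinted gene network, 18 were measured apart from the members, of which 3 rose, 2 fell and 13 did not pass, with a median difference of 0.02. Igf2, a growth factor expressed from the allele of the father, averaged 10.50 ± 0.17 in old and 8.13 ± 0.28 in young, a difference of 2.37 ± 0.14 (SE, adjusted p = 6.9e-06). Peg3, a zinc finger gene expressed from the allele of the father, averaged 7.65 ± 0.08 in old and 9.05 ± 0.12 in young, a difference of -1.40 ± 0.08 (SE, adjusted p = 5.2e-06). Zdbf2 rose by 0.61 (adjusted p = 0.0075) and Impact by 0.57 (adjusted p = 0.0202). Plagl1, an imprinted zinc finger gene, was the other that fell (-0.46, adjusted p = 0.019). The call of Impact ended without any of old replicates 2, 3 or 4 or young replicates 1 or 2 (adjusted p up to 0.0579).

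Of 18 measured genes that keep imprints or write, read and remove DNA methylation, 4 rose, 1 fell and 13 did not pass. Dnmt1, which copies methylation after replication, averaged 6.63 ± 0.11 in old and 6.19 ± 0.05 in young, a difference of 0.44 ± 0.07 (SE, adjusted p = 0.00204). Dnmt3a, which sets new methylation, averaged 8.86 ± 0.11 in old and 9.22 ± 0.09 in young, a difference of -0.36 ± 0.07 (SE, adjusted p = 0.00842), with -0.61 from its most variable probe set. Zfp445, a zinc finger protein that protects imprints, rose by 0.37 (adjusted p = 0.0314), and Smchd1, a chromatin protein, rose by 0.30 (adjusted p = 0.0331). Uhrf1, which brings Dnmt1 to replicated DNA, rose by 0.23 (adjusted p = 0.0225). The call of Zfp445 ended without any of 5 arrays (adjusted p up to 0.0854) and that of Smchd1 without any of 6 (up to 0.0819). As the mean over its probe sets Zfp445 differed by 0.24 (adjusted p = 0.0701). The 5 calls of the list became 2 without young replicate 3 or young replicate 4, and 3 without old replicate 1, old replicate 2 or young replicate 2. Trim28 and Setdb1, which silence through such zinc finger proteins, differed by -0.04 each and did not pass. They were named after their values were seen.

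Polycomb repressive complex 2 places the repressive mark on histone H3, and in mouse embryonic stem cells it has been linked to the allele-specific expression of this cluster. Of 10 measured subunits and partners 4 rose, none fell and 6 did not pass, with a median difference of 0.30 against 0.01 over all genes. Aebp2 averaged 9.21 ± 0.15 in old and 8.77 ± 0.02 in young, a difference of 0.45 ± 0.08 (SE, adjusted p = 0.00388). Suz12, a core subunit, rose by 0.44 (adjusted p = 0.0118), the histone-binding subunit Rbbp7 by 0.31 (adjusted p = 0.0123) and the accessory subunit Jarid2 by 0.29 (adjusted p = 0.0407). The direction of Jarid2 depended on the probe set: its most variable one gave -0.26 (adjusted p = 0.201) and the mean over them 0.07 (adjusted p = 0.57), and its call ended without any of 7 arrays (adjusted p up to 0.106).

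Thyroid hormone handling was described because Dio3, not analysed here, inactivates thyroid hormone. Of 17 measured genes 2 rose, 1 fell and 14 did not pass, near the 17.5% of all genes that passed. The list median was 0.11 against 0.01 over all genes. Dio2, the deiodinase that activates thyroid hormone, averaged 7.43 ± 0.54 in old and 6.24 ± 0.47 in young, a difference of 1.20 ± 0.28 (SE, adjusted p = 0.0163), and 0.63 as the mean over its probe sets. The list's 3 calls became 5 with dim genes left out and 6 with the most variable probe sets. The receptor gene Thrb rose by 0.46 (adjusted p = 0.0159), and Hr, a corepressor of thyroid hormone and vitamin D receptors, fell by 0.53 (adjusted p = 6.9e-04).

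Of 20 measured Notch receptors, ligands and partners of DLK1, 3 rose, none fell and 17 did not pass. Over all genes 17.5% passed, and the list median was 0.05 against 0.01 over all genes. Notch1 averaged 8.31 ± 0.22 in old and 7.41 ± 0.34 in young, a difference of 0.90 ± 0.16 (SE, adjusted p = 0.00481), and 0.49 as the mean over its probe sets. The list's 3 calls became 5 with dim genes left out, and 5 with a replicate block. Gas1, a membrane protein reported to bind DLK1, rose by 0.66 (adjusted p = 2.1e-04), and Rbpj, the DNA-binding factor of Notch signalling, by 0.35 (adjusted p = 0.00517).

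Among 18 measured genes that process microRNAs or build box C/D small nucleolar RNA particles, 3 rose, none fell and 15 did not pass. This is near the 17.5% of all genes that passed, and the list median was 0.13 against 0.01 over all genes. Prkra, a partner of Dicer, rose by 0.31 (adjusted p = 0.00922), and the microRNA-binding proteins Ago1 and Ago2 rose by 0.39 (adjusted p = 0.0236) and 0.22 (adjusted p = 0.0295). The call of Ago1 ended without young replicate 3 or young replicate 4 (adjusted p up to 0.0653), which left 1 call in the list, and that of Ago2 without any of 6 arrays (up to 0.0798). As the mean over its probe sets Ago2 differed by 0.09 (adjusted p = 0.368). The list had 5 calls with a replicate block, with trended robust variances and with array weights. Of 7 measured genes of the p53 pathway, which MEG3 has been reported to influence in human cells, 2 fell and 5 did not pass. Bbc3, a promoter of apoptosis, fell by 0.33 (adjusted p = 0.0374) and Ccng1 fell by 0.26 (adjusted p = 0.0231). Both calls depended on single arrays: that of Bbc3 was lost without any of 5 arrays and that of Ccng1 without young replicates 2, 3 or 4. Neither gene passed without young replicate 3 or without young replicate 4 (adjusted p up to 0.0962 for Bbc3 and 0.0686 for Ccng1 over the arrays left out). Without young replicate 3 the list had 1 call, of another gene, and without young replicate 4 it had 0.

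Over these lists and the flanking genes together, 34 genes passed the threshold. With the non-specific signal as a covariate 3 did, namely Evl (-1.0, adjusted p = 0.0439), Igf2 (2.55, adjusted p = 0.00531) and Peg3 (-1.17, adjusted p = 0.00628). All 3 also passed without it.

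**Figure D4:**
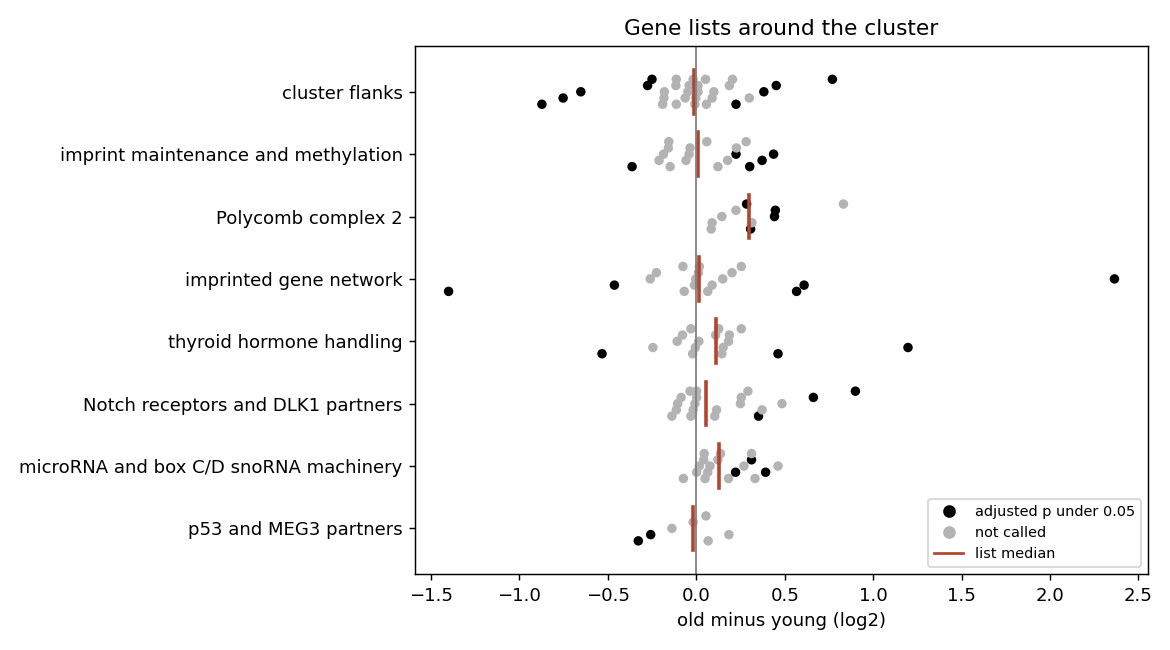
Difference old minus young (log2) of each measured gene in the lists around the cluster, black where the adjusted p is under 0.05 and grey otherwise, with the list median as a red line. The medians lie between -0.02 and 0.13, apart from Polycomb complex 2 at 0.30. Igf2 (2.37) and Peg3 (-1.40) lie farthest from 0.

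The genes whose levels followed a member most closely over the 8 arrays were found by the root mean square difference of their log2 levels, after each gene's own mean was subtracted. Since the members' age difference dominates this measure, the result is a description. For Meg3 the 5 nearest named genes were Col13a1, a transmembrane collagen (0.156), Clec11a, a secreted growth factor (0.161), Rian (0.163), Emid1 (0.166) and the lysyl hydroxylase Plod1 (0.174). For Rian, Meg3 was the nearest of all other genes (0.163), followed by the receptor tyrosine kinase Ret (0.214), Aplp1 of the amyloid precursor family (0.215), Plod1 (0.222) and the ephrin Efna1 (0.231). Dlk1 was 0.662 from Meg3 and 0.658 from Rian, and Mirg was farther, at 0.779 and 0.748.

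Mirg had no such close neighbour. Its nearest were Camk2a, a calcium-dependent kinase (0.403), the actin-bundling Fscn1 (0.487), the noradrenaline transporter Slc6a2 (0.516), the branched-chain amino acid enzyme Bcat1 (0.540) and the transcription factor Tcfl5 (0.666). Rian was 18th and Meg3 26th from Mirg, at 0.748 and 0.779. In the other direction Mirg was 2172nd from Rian and 3659th from Meg3. Dlk1 was nearer to both, at 780th from Rian and 877th from Meg3. In old arrays, relative to the gene's mean, Mirg ranged from -2.13 (replicate 1) to -0.18 (replicate 4), while Meg3 stayed between -0.99 and -0.67. In young arrays Mirg lay between 0.93 and 1.77, and Meg3 between 0.68 and 0.93.

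**Figure D5:**
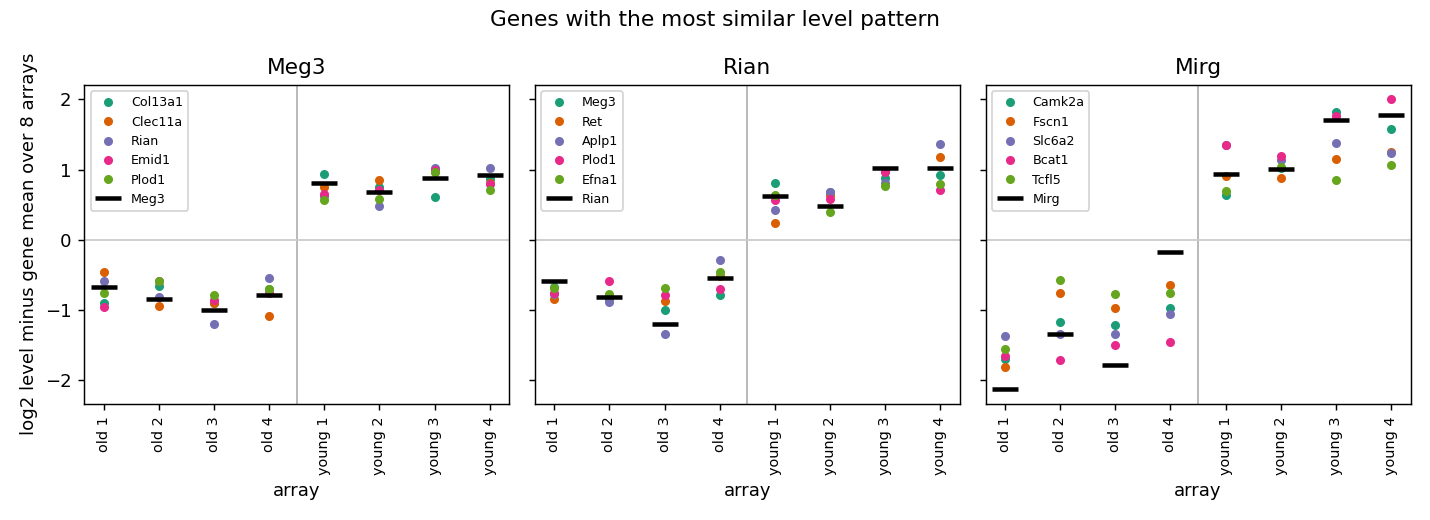
Log2 level minus the gene's own mean over the 8 arrays (vertical axis), by array with old left of young, for Meg3, Rian and Mirg (black bars) and the 5 genes nearest to each (coloured points). Points lie close to the bars for Meg3 and Rian, and wider for Mirg, whose old arrays run from -2.13 to -0.18.

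The sorted cells carried the gate's markers in both ages. Cd34 averaged 11.68 ± 0.10 in old and 11.73 ± 0.07 in young, and Pdgfra 8.52 ± 0.13 in old and 8.36 ± 0.16 in young (SD, n = 4 each), and neither passed. Of the genes the sort selected against, Ptprc (3.88 in old, 3.71 in young) and Kit (3.72 in old, 3.63 in young) lay near the olfactory receptor median. Pecam1 (5.44 in old, 5.07 in young) and Cd24a (6.60 in old, 7.27 in young) were higher. The means of Epcam (4.59 in old, 4.25 in young) lay under the 95th percentile of olfactory receptor genes in both ages. Its old mean held 1 array at 4.99, against 4.43 to 4.48 in the others. None of the 5 passed. Cd24a (-0.67, adjusted p = 0.0515) passed in 8 of 18 alternatives, among them the replicate block (adjusted p = 0.00643), array weights (0.00859), a further quantile normalization (0.026) and median centring (0.0311). Epcam passed in 2 alternatives and Pecam1 in 1. Their part in the differences of the cluster was not tested. The mean over 10 fibroblast markers was 11.10 to 11.17 in old and 11.19 to 11.33 in young, with Dcn brightest and 1 of 10, Col3a1, lower (-0.28, adjusted p = 0.00765). The size for Col3a1 depended on the probe set, with -1.07 as the mean over them (adjusted p = 1.59e-05) and -1.86 from the most variable (adjusted p = 1.7e-05).

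Markers of other cells were given as means over all measured genes of each list, with only the brightest, smallest-p and called genes named. The mean of 7 muscle markers was 4.50 to 4.60 in old and 4.55 to 4.65 in young, with none called by limma, 1 at an unadjusted p under 0.05, Des brightest and Myod1 of smallest p (-0.19, adjusted p = 0.135). The mean of 9 keratinocyte markers was 7.47 to 8.60 in old and 6.92 to 8.07 in young, with 2 higher and 2 lower, and Krt5 brightest and 2.06-fold higher in old (adjusted p = 0.0379). Krt14 rose by 1.65 (adjusted p = 0.00469), and the 2 lower were Lor (-0.60, adjusted p = 0.0201) and Trp63 (-0.41, adjusted p = 0.0237). The mean of 4 pericyte markers was 6.60 to 7.33 in old and 6.10 to 6.23 in young, with Kcnj8 brightest and the 1 called (0.64, adjusted p = 0.0429). The call of Krt5 was lost without any of 6 arrays and that of Kcnj8 without any of 7. Their part in the differences of the cluster was not tested.

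Of 7 endothelial markers 1 rose, Tek (1.73, adjusted p = 0.00111). Kdr, the brightest, averaged 7.54 ± 0.57 in old and 7.39 ± 0.92 in young and did not pass (adjusted p = 0.869), and the list mean was 5.09 to 5.60 in old and 4.98 to 5.20 in young. Of 7 immune markers 1 rose and 1 fell, namely Lyz2 (1.08, adjusted p = 0.00155) and Csf1r (-1.92, adjusted p = 5.9e-06), also the brightest, with list means of 5.30 to 5.37 in old and 5.28 to 5.47 in young. Of 6 melanocyte and Schwann markers Mlana fell by 0.57 (adjusted p = 0.0324, lost without any of 5 arrays), Ngfr was brightest, and the list mean was 4.78 to 5.0 in old and 4.99 to 5.09 in young. Of 4 adipocyte markers none passed in limma, nor did any have an unadjusted p under 0.05, with Lipe brightest and Lep of smallest p (0.06, adjusted p = 0.541), and the list mean was 4.49 to 4.60 in old and 4.51 to 4.61 in young. Their part in the differences of the cluster was not tested either.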

How the data were processed

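The authors deposited log2 values per probe set for 8 arrays, 1 per animal. Per the submitters' processing notes they were made with RMA and the R package affy, versions not given. RMA corrects background, quantile normalizes arrays and summarises probes, which hides shifts shared by most transcripts and compresses differences near background. Array medians lay between 5.19 and 5.34. The number of arrays limits the precision. Replicates are separate animals per the series text, and the specimen number is not tied to a day, so no block was used.

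Gene names came from the platform annotation (28898 probe sets with 1 symbol, 551 with several and 15692 with none), updated through RefSeq gene IDs for 28689. Sequences are from RefSeq tables of GRCm38.p6. No source used here names the build of that annotation. Old minus young was fitted with limma 3.58.1 in R 4.3.3 (lmFit, eBayes, 2-sided) over 17097 genes, with Benjamini-Hochberg adjustment and a threshold of 0.05, and adjusted p values come from this fit unless an alternative is named beside them. The fit was tested on simulated data. Members and lists were chosen with earlier results of these data known.

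Genes named are all members, the genes between Dlk1 and Dio3, up to 4 called genes of largest difference per list (otherwise the 2 of smallest p), the sort gate, the brightest (mean over all 8 arrays) and smallest-p gene of each marker list, and the 5 genes nearest to Meg3, Rian and Mirg, predicted transcripts left out. Called genes outside this rule were named where a count was small (Vrk1, Eif5, Tecpr2, Eml1, Cinp, Uhrf1, Plagl1, Lor, Trp63 and Lyz2). These, Wdr25, Ppp2r5c, Trim28 and Setdb1 were named after their values were seen. Alternatives covered a replicate block, scaling, dim genes, the probe set per gene, variance settings, array weights, covariates for background and leaving out each array. The covariate of non-specific signal was added after seeing the data.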

Additional observations from a re-analysis of the deposited data

Results flagged for a closer look

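In 132 groups of 4 arrays, drawn from the 16 probe sets of the members and the named genes, 7 had 1 array far from the other arrays of its age. Chance gives such a gap in about 1 of 20 groups. For the members this was the eighth Meg3 probe set by level, where old replicate 3 had 5.88 and the other old arrays had 6.13 to 6.18. Among list genes, Dnmt3a had 9.02 in old replicate 2, against 8.80 to 8.82 in the other old arrays. Zdbf2 had 5.10 in old replicate 1, against 5.57 to 5.65. Gas1 had 10.03 in old replicate 4, against 10.18 to 10.20, and Epcam had 4.99 in the same array, against 4.43 to 4.48. Kdr, an endothelial marker, had 6.02 in young replicate 1, against 7.81 to 7.89 in the other young arrays. Smchd1 had 8.18 in young replicate 2, against 8.47 to 8.48 in the other young arrays.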

How the results depend on the processing

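All 4 measured members stayed lower in old under every alternative run for them. Leaving out single arrays gave -1.70 to -1.59 for Meg3, -1.68 to -1.44 for Rian, -3.10 to -2.45 for Mirg and -0.37 to -0.30 for Dlk1. The size depended on the probe set for Rian (-2.12 for the mean over probe sets, -2.74 for the most variable) and Meg3 (-2.41 for the most variable). Dlk1 was not among the brighter genes and has no value when dim genes were left out. The non-specific signal covariate gave -1.88 for Meg3 and -2.13 for Rian, and with it 67 genes were higher and 98 lower, 165 in all, against 1688, 1310 and 2998 without it. The same covariate left 3 of 34 calls over the lists. Leaving out single arrays gave 2201 to 2928 called genes, 1215 to 1709 higher, 983 to 1219 lower, and 24 to 36 calls over the lists. Of all calls 56.3% were higher, against 45.2% after a further quantile normalization. Among named calls, median centring ended those of Ago1, Jarid2, Kcnj8 and Zfp445, the further quantile normalization those of Ago2, Jarid2, Kcnj8, Smchd1 and Zfp445, and the olfactory receptor covariate those of Jarid2, Kcnj8, Krt5, Smchd1 and Zfp445. The mean over probe sets ended those of Ago2, Jarid2 and Zfp445, trended robust variances that of Krt5, and array weights that of Jarid2. With the non-specific signal covariate Tek, still called, differed by 2.63 in place of 1.73. Jarid2 turned to -0.26 with its most variable probe set.

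With a replicate block on specimen number, 3106 genes and 38 list genes were called, Mirg had an SE of 0.22 in place of 0.38, and 1 of 34 named calls, Ago2, was lost. Deviations of same-numbered arrays correlated at 0.29, 0.05, -0.04 and 0.22 over genes. Old replicates 1 and 4 correlated best with their own number, and old replicates 2 and 3 with another number. With 4 arrays per age and mixed results, this check cannot tell whether the numbers pair the animals. Signal near background limits Dlk1, Dio3os and 3110009F21Rik. It also limits Mirg in old replicate 1 (4.73), which lay under the olfactory receptor 95th percentile on old arrays (4.77). Among called markers, the old means of Mlana (4.33) and Lor (4.37) lay under the same bound. The young mean of Lyz2 (4.72) lay under the bound on young arrays (4.73).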
